A study of Gallus gallus with 16 samples.

Results

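The extracellular matrix of fat holds each adipocyte and each capillary in a mesh of collagens, basement membrane proteins and the enzymes that cross-link them. Collagen VI is a trimer of chains that assembles into beaded filaments near cell surfaces, and in the mouse it is a major matrix component of adipose tissue. Nidogens and laminins build the basement membrane, whereas thrombospondins and the SPARC-related proteins are matricellular proteins, which act on cells and growth factors more than they bear load. Lysyl oxidases and transglutaminases make covalent bonds between matrix proteins.

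The genes described here are 9 matrix genes of chicken abdominal fat, of 17854 loci in the count table. They are the collagen VI chains COL6A2 and COL6A3, the basement membrane genes NID2 and LAMA2, DPT, the matricellular genes THBS2 and SMOC1, and the cross-linking enzymes LOXL2 and TGM2. Each was found by the Ensembl chicken gene identifier paired with its symbol in the study's list of genes that differed between the lines, so the study itself picked all 9 in these birds, and the direction of each difference below is not independent evidence. All 9 had a row, a status of OK in both lines and a count high enough to be tested.

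The birds were meat-type (Bresse-Pile) cockerels of a high growth (HG) and a low growth (LG) line, divergently selected on body weight and sampled in the fed state at 7 wk of age. The labels name no agent and no transgene for either line. RNA from whole abdominal fat of 4 HG and 4 LG birds was sequenced in 2 lanes per bird, and the line was taken from the sample titles, because another label field says HG for all 16 sequencing samples. The table holds 1 estimated count per gene and line for the 4 birds together, beside a variance from the counting model. Values of single birds were not analysed here, and whether birds of the lines overlap could not be examined. In whole tissue fewer cells of a type and less RNA per cell cannot be told apart.

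The count total was 4421254 for HG and 3365950 for LG. The paper gives far more mapped reads for every single bird, so these totals are not read as sequencing depth. Over the 10484 loci tested the log2 HG/LG ratio had a median of 0.26 rather than 0. Calls are therefore given as deposited, and again after that median was subtracted (centred). The log ratio was set against its standard error, and a locus passed where its p, adjusted by the Benjamini-Hochberg method, was at most 0.05 and its fold at least 1.2. Of 12 adipocyte markers 4 had a row under a symbol of the study's list. The adipogenic regulator PPARG (1774 in HG, 910 in LG) and GPD1, which makes glycerol phosphate (5108 and 2103), passed as higher in HG only as deposited. PNPLA2, the main triglyceride lipase (5366 and 12187.5), passed as higher in LG only when centred or scaled to equal totals. DGAT2 was listed at 0 in both lines. The paper describes DGAT2 as raised in HG, so its empty row here is not read as missing expression.

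Counts of 8 of the 9 genes were higher in HG and that of TGM2 was higher in LG. The log2 HG/LG ratios (pseudocount of 1) ran from 3.79 for SMOC1 to -0.85 for TGM2, with a median of 1.34. Of the 9, 4 passed as deposited (SMOC1, THBS2, LOXL2 and NID2), all higher in HG, where 2.93% of all loci tested passed, 2.07% toward HG and 0.858% toward LG. Among the 1364 loci tested that carry a symbol from the study's list the share was 13.2% (12.6% toward HG and 0.587% toward LG), and nothing about the 9 genes is read from these shares, since the list was made from the same birds. After centring, 3 of the 9 passed (SMOC1, THBS2 and LOXL2), against 2.18% of all loci tested (0.992% toward HG, 1.19% toward LG) and 7.77% of those with a symbol (6.09% toward HG, 1.69% toward LG). With columns scaled to equal totals, 4 of the 9 passed, the same 3 toward HG and TGM2 toward LG, against 2.25% of all loci tested (0.696% toward HG, 1.55% toward LG).

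**Figure D1:**
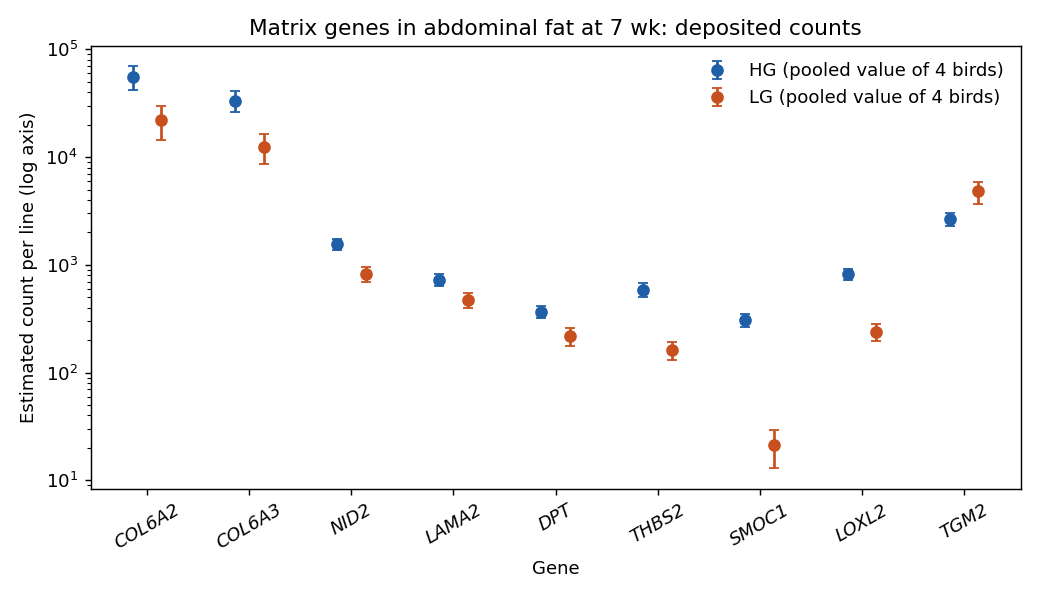
Estimated count of each gene in the HG and LG lines on a log axis, as deposited, 1 pooled value of 4 birds per line; bars are 1 model standard deviation (SD) from the deposited variance. TGM2 is the gene with the higher count in LG, and the gap between the lines is widest for SMOC1, with 307 in HG and 21.3 in LG.

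Collagen VI was represented by COL6A2 and COL6A3, which encode the alpha 2 and alpha 3 chains. COL6A2 (ENSGALG00000006126) had a count of 55755 in HG (model SD 14195) and 21991 in LG (model SD 7626). COL6A3 (ENSGALG00000003923) had 33332 in HG (model SD 7380) and 12450.5 in LG (model SD 3822). Both chains were thus higher in HG, by a log2 ratio of 1.34 (95% interval 0.13 to 2.56) for COL6A2 and 1.42 (95% interval 0.35 to 2.49) for COL6A3. Neither passed over all loci, with adjusted p values of 0.34 and 0.17. After centring, the interval of COL6A2 ran from -0.13 to 2.30 and included 0, while that of COL6A3 ran from 0.09 to 2.23.

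These chains were among the most counted loci of the count table, and the ranks and shares below describe that table. COL6A2 ranked at position 4 by count in HG and 7 in LG, and COL6A3 at positions 9 and 18. Together they took 2.01% of all counts in HG and 1.02% in LG. Within the counts of the 9 genes their share was 92.7% in HG and 83.6% in LG. Ranks and shares of counts also depend on transcript length, which was not used here.

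The balance between the chains was compared by their ratio to each other in each line. The ratio itself depends on gene length, but its change between the lines depends neither on length nor on the scaling. COL6A3 had 0.598 counts per count of COL6A2 in HG and 0.566 in LG. The difference of their log2 HG/LG ratios was -0.08 (COL6A2 minus COL6A3), with a 95% interval of -1.70 to 1.54 if the loci are taken as independent. A difference between the chains was therefore not detectable, and the interval is too wide to call the chains alike. The third chain gene, COL6A1, has no protein-coding gene between itself and COL6A2 in the RefSeq annotation of a later assembly (GRCg7b), and its count was not analysed here.

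Of the basement membrane genes, NID2 (ENSGALG00000012394) encodes nidogen-2, which links laminin and collagen IV networks, and LAMA2 (ENSGALG00000014014) encodes the laminin alpha 2 chain, best known from muscle basement membrane. NID2 had a count of 1551 in HG (model SD 183) and 825 in LG (model SD 131). Its log2 ratio was 0.91 (95% interval 0.35 to 1.47), and it passed at an adjusted p of 0.048, just inside the threshold. It no longer passed after centring, where the log2 ratio was 0.65 and the adjusted p 0.41. LAMA2 had 726 in HG (model SD 94.7) and 472 in LG (model SD 74.2). Its log2 ratio was 0.62 (standard error 0.29), the nearest to 0 of the 9, and it did not pass, with an adjusted p of 0.37. The count of LAMA2 per count of NID2 was 0.468 in HG and 0.572 in LG, and the interval of that difference included 0.

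DPT (ENSGALG00000019229) encodes dermatopontin, a small protein that binds decorin and associates with collagen fibrils. The count of DPT was 366 in HG (model SD 47.8) and 217 in LG (model SD 40.1). The log2 ratio was 0.75 (95% interval 0.11 to 1.39), and DPT did not pass (adjusted p 0.28). Centred, the interval ran from -0.15 to 1.13. Its binding partner decorin, a proteoglycan encoded by DCN, did not pass either. DCN counts were 9569 (HG) and 6260 (LG), with a log2 ratio of 0.61 and an interval of -0.32 to 1.55.

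The matricellular genes THBS2 and SMOC1 had the highest log2 ratios of the 9, although THBS2 was not told apart from LOXL2, COL6A2 or COL6A3. THBS2 (ENSGALG00000011200) encodes thrombospondin-2, an inhibitor of vessel growth in the mouse, and had a count of 586 in HG (model SD 86.8) and 162 in LG (model SD 32.1). Its log2 ratio was 1.85 (95% interval 1.15 to 2.55), and it passed both as deposited and centred, at adjusted p values of 3.7e-05 and 0.0010. THBS2 was the 1 gene of the 9 for which the study's primer table holds a qRT-PCR assay. The pair, which amplifies 72 bp, is shown because it defines the part of the transcript that the assay reads, and is given in lower case with no part marked. Its qRT-PCR values were not used here.
THBS2 forward primer: gtcggcgatcctgaggaa
THBS2 reverse primer: ctggacagcattcaccttca

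SMOC1 (ENSGALG00000009415) encodes a secreted calcium-binding protein of the SPARC family that opposes BMP signalling in frog embryos. Its count was 307 in HG (model SD 42.2) and 21.3 in LG (model SD 8.36). The log2 ratio was 3.79 (95% interval 2.66 to 4.92), or 13.8-fold, larger than 99.8% of the ratios over all loci tested. It passed at an adjusted p of 6.5e-08 as deposited and 8.1e-07 centred. SMOC1 had the lowest LG count of the 9, and its LG model SD was 39.3% of the count, the largest relative SD among the 9.

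The cross-linking enzymes went in opposite directions. LOXL2 (ENSGALG00000000402), a lysyl oxidase that oxidises lysines of collagens, had a count of 825 in HG (model SD 96.2) and 239.8 in LG (model SD 42.3). Its log2 ratio was 1.78 (95% interval 1.18 to 2.37) and it passed both ways, at adjusted p values of 1.5e-06 and 0.00011. TGM2 (ENSGALG00000006775), the tissue transglutaminase, which joins glutamine and lysine side chains and also has roles inside cells, had 2658 in HG (model SD 343) and 4804 in LG (model SD 1111). Its log2 ratio was -0.85 (95% interval -1.60 to -0.10), and it passed neither as deposited (adjusted p 0.31) nor centred (adjusted p 0.12). When columns were scaled to equal totals instead, TGM2 passed as higher in LG at an adjusted p of 0.049. There were 3.22 counts of TGM2 per count of LOXL2 in HG and 20.0 in LG, a shift of 2.63 on the log2 scale (95% interval 1.67 to 3.59) that does not depend on the scaling. Both genes came from the study's list, with TGM2 known to be lower in HG. The shift is therefore not independent evidence.

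**Figure D2:**
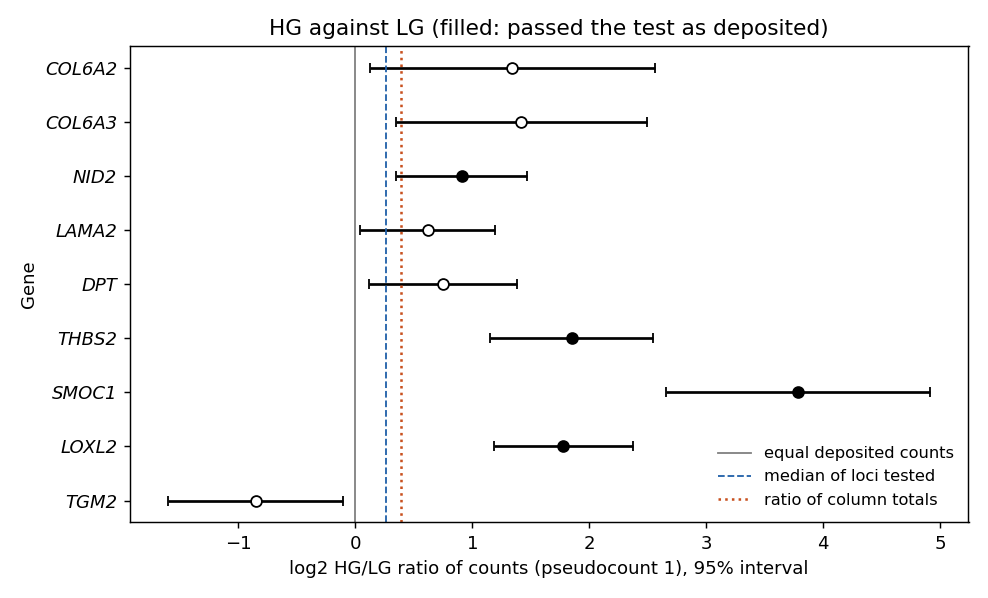
Log2 HG/LG ratio of each gene with its 95% interval from the deposited variances; filled points passed the test as deposited, and lines mark equal counts, the median of the loci tested (0.26) and the ratio of column totals (0.39). The intervals of SMOC1, THBS2 and LOXL2 lie to the right of all 3 lines, and that of TGM2 to the left of them.

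As deposited, the 95% intervals of all 9 ratios left out 0, although 5 of the 9 did not pass the adjusted test. The study had picked the 9 as differing in these birds, so these intervals are not independent evidence. Centred, the intervals of COL6A2, LAMA2 and DPT included 0 and those of the other 6 did not. None of the 9 genes changed direction with the scaling. The lowest ratio among the 8 genes higher in HG was 0.36 centred and 0.23 with equal column totals, that of LAMA2 in both cases.

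The 36 pairs of genes were also compared by the difference of their log2 ratios, again free of the scaling. For 21 pairs the 95% interval of the difference left out 0. This held for SMOC1 against each of the 8 others, the nearest being THBS2 (THBS2 minus SMOC1 -1.94, interval -3.26 to -0.61). It also held for TGM2 against each of the 8 others, the nearest being LAMA2 (LAMA2 minus TGM2 1.47, interval 0.53 to 2.42). When the 9 were chosen, the study had already listed SMOC1 among its top genes higher in HG, and TGM2 was known to be the one gene lower in HG. Of the 21 pairs without SMOC1 or TGM2, 6 had such an interval, and these were THBS2 and LOXL2 each against NID2, LAMA2 and DPT. LOXL2 and THBS2 lay close together, with a difference of 0.07 (THBS2 minus LOXL2, 95% interval -0.84 to 0.99). The intervals are not adjusted for the number of pairs, and the collagen VI chains could be told apart from SMOC1 and TGM2 and from no other gene of the 9.

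**Figure D3:**
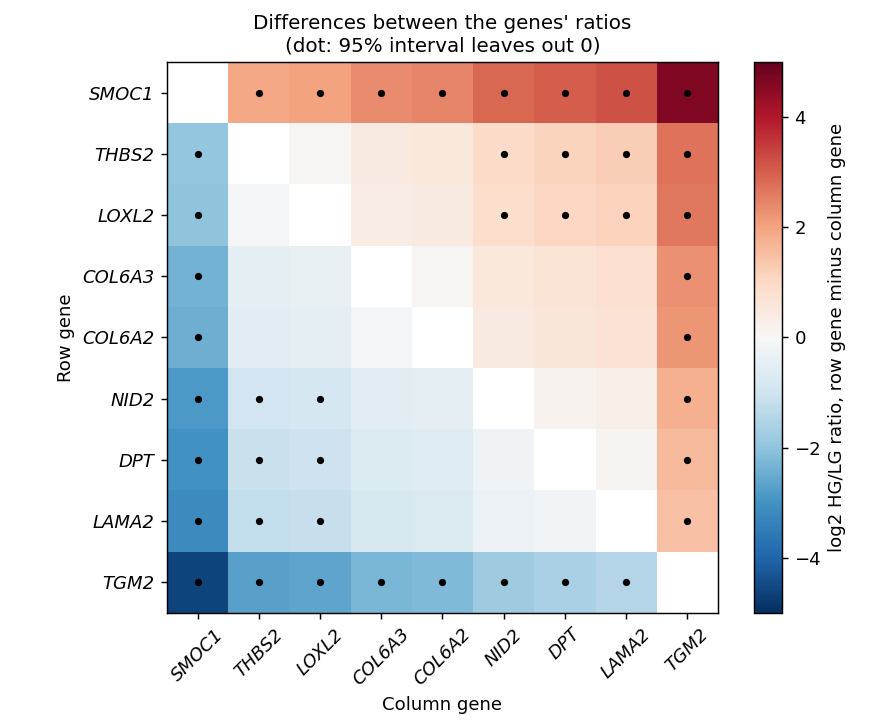
Difference of log2 HG/LG ratios for each pair of genes, row gene minus column gene, with genes ordered by ratio; a dot marks a 95% interval that leaves out 0. The rows of SMOC1 and TGM2 carry a dot in all 8 of their cells, and those of COL6A2 and COL6A3 in 2 cells each.

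The spread that the model gives each count differed among the genes. The model SD relative to the count ran from 11.7% (LOXL2) to 25.5% (COL6A2) in HG and from 15.7% (LAMA2) to 39.3% (SMOC1) in LG, and was larger in LG for all 9. Across all loci tested its median was 20.2% in HG and 24.6% in LG. For NID2, DPT, SMOC1 and LOXL2 it was close in both lines to the median of the 200 loci nearest in count. For SMOC1 the 2 values were 13.8% and 13.8% in HG and 39.3% and 39.6% in LG. The relative SD of these genes is therefore not read as a spread of their own. The other genes lay further from that median in HG, in LG or in both. The collagen VI chains had counts far above the other genes and yet wide intervals, with relative SDs of 25.5% and 22.1% in HG and 34.7% and 30.7% in LG. Loci with counts of at least 10000 had a median relative SD of 20.6% in HG (31 loci) and 35.7% in LG (21 loci). At these spreads COL6A2 would have passed at 3.94-fold or more and COL6A3 at 3.34-fold, against 1.88-fold for NID2 and 2.05-fold for DPT. The measured fold was 2.54 for COL6A2 and 2.68 for COL6A3, whereas NID2 at 1.88 lay on its limit. For 7 of the 9 genes the whole variance (to within 0.01%) was the part that the model ascribes to the spread between replicates. The exceptions were TGM2, with 92.2% in HG and 88.6% in LG, and THBS2, with 68.3% in HG and 102.6% in LG, where the part exceeded the whole as deposited. The sources used here do not say if this variance describes a single library or an average of the birds. With that variance divided by 4, as for an average of the birds, all 9 genes passed, as did 2841 of all loci tested. The study's own test of these birds called all 9. The part of its list read here has 1998 rows, against 307 loci that passed here as deposited. The 5 genes that did not pass here as deposited were therefore still called by the study.

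**Figure D4:**
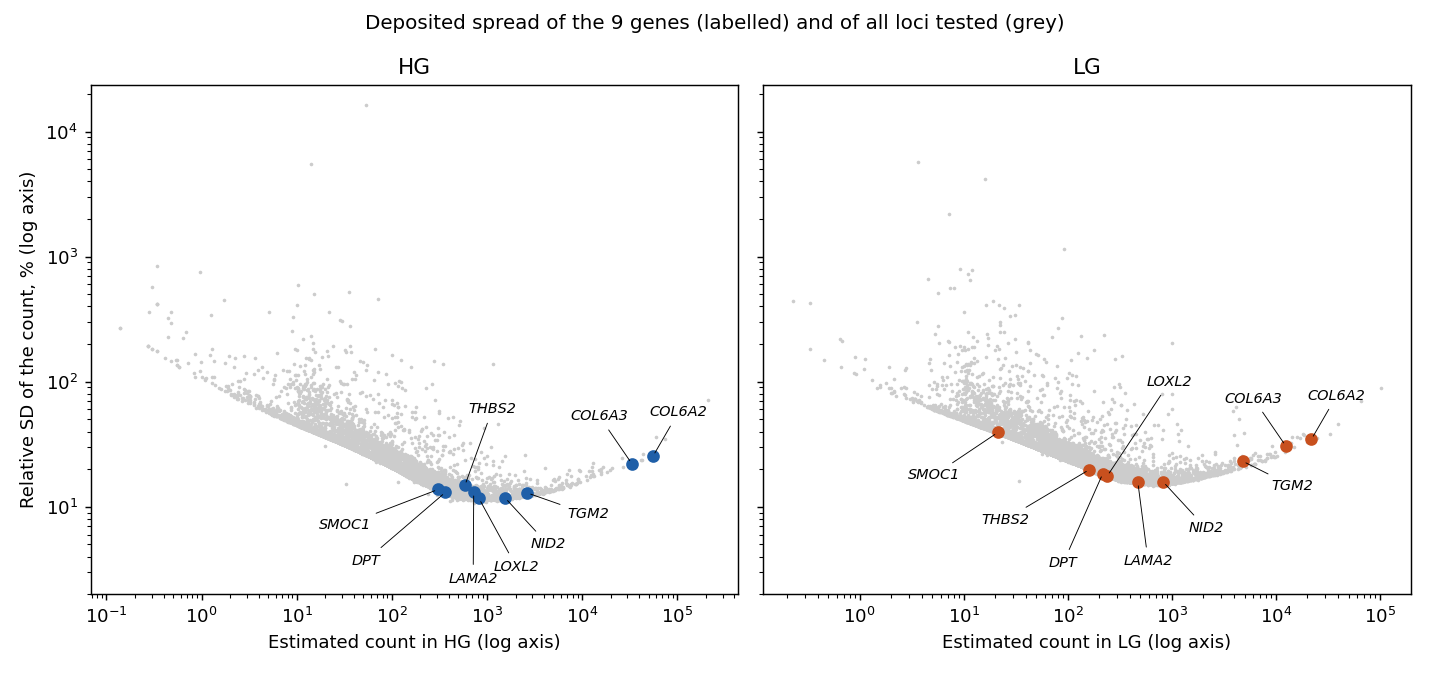
Relative SD of the count, in percent of the count, against the count in HG and in LG, both on log axes, for the 9 genes (labelled) and for all loci tested (grey). The lower edge of the relative SD falls with the count up to about the level of NID2 and rises again towards COL6A2, which had 25.5% in HG and 34.7% in LG.

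The other matrix genes came from 8 lists of gene families. Of 243 symbols beside the 9, 52 had a row under their symbol and 49 were tested, all of them from the list of genes the study had called. Of the 49, 37 had the higher count in HG and 12 in LG. The matricellular list, which includes THBS2, SMOC1 and DPT, had 4 genes higher in HG and 2 in LG, and the receptor list 5 and 4. As deposited, 11 of the 49 passed toward HG and 1 toward LG, where 12.6% and 0.587% of all loci with a symbol did. Centred, 7 and 1 passed, where 6.09% and 1.69% of the loci with a symbol did. The copy of the list used here was cut short, and symbols were held by 172 of the 217 loci that passed toward HG but by only 8 of the 90 that passed toward LG. The lists of genes therefore leave out nearly all loci called higher in LG, and their lean toward HG is not read as a feature of matrix genes. Their median log2 ratio was 0.92, against 0.26 over all loci tested and 0.69 over the loci that carry a symbol. Of 14 partners and paralogues of the 9 genes, such as COL6A1, LAMB1, LOX and FN1, DCN alone was matched to a row by symbol, and the rest were not analysed here.

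No gene of the network collagen list or the elastic fibre list passed. Beside COL6A2 and COL6A3, the network collagen list held COL22A1, with counts of 55.1 and 18.8, and COL27A1, with 80.0 and 101.5. List names are loose groupings, and not every listed gene is of the named type. In the basement membrane list COL15A1, a collagen of the basement membrane zone, had counts of 513 and 244 and passed as deposited (log2 ratio 1.07) but not centred. LAMA4, the laminin chain of vessels and adipocytes, had counts of 5788 and 2878 and did not pass, with a log2 ratio of 1.01 (interval 0.29 to 1.72). All 6 genes tested from the elastic fibre list had ratios above the median of all loci, between 0.67 and 0.92, and none passed.

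Among proteoglycans, 2 leucine-rich members passed both ways. PRELP, which anchors basement membranes to collagen, had 3648 in HG against 1131 in LG (log2 ratio 1.69), and CHAD, chondroadherin, had 3239 and 913 (log2 ratio 1.83). The procollagen N-proteinase ADAMTS2, which acts upstream of fibril assembly, passed both ways beside LOXL2, with a log2 ratio of 1.70. Of the matrix proteases, ADAMTS5 and ADAMTS15, which cleave large proteoglycans, passed both ways, ADAMTS5 with counts of 490.4 and 173 and ADAMTS15 with 1048 and 449, and ADAMTS8 (1.82) and ADAMTS9 (1.13) passed only as deposited. With equal column totals ADAMTS15 did not pass, while TIMP4 of the same list (385 in HG, 593 in LG, log2 ratio -0.62) passed as higher in LG. Among receptors, ITGA11, a collagen-binding integrin subunit, and ITGAV passed both ways as higher in HG, with log2 ratios of 1.87 and 1.77. CSPG4 (1.05) passed only as deposited. ITGB4, the integrin subunit of epithelial hemidesmosomes, passed both ways as higher in LG, at 140.3 in HG against 345 in LG (log2 ratio -1.29).

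**Figure D5:**
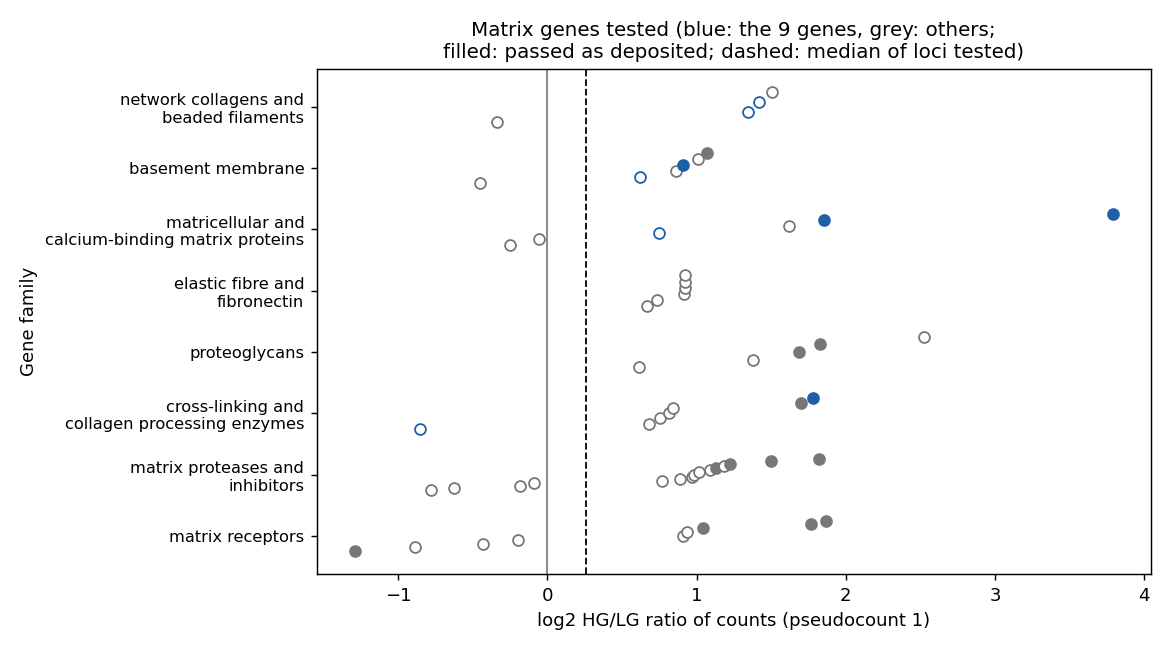
Log2 HG/LG ratio of the 58 matrix genes tested, by family, with the 9 genes in blue, the others in grey and filled points for those that passed as deposited; the dashed line is the median of all loci tested (0.26). All 58 genes come from the list that the study had called, none has a ratio between -0.05 and 0.61, and SMOC1 stands furthest to the right at 3.79.

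Markers of other cell types were counted in the same tissue. They too were found only by the symbols of the study's list, so a lean toward HG among them is not read as a feature of the cell types. Of 12 fibroblast and stromal markers 4 had a row (PDGFRB, DCN, FAP and PI16), which summed to 12580 in HG against 7461 in LG. DCN, which did not pass, made up most of both sums (9569 in HG, 6260 in LG). As deposited, 3 of the 4 passed as higher in HG, where 12.6% of all loci with a symbol did. FAP, a protease of activated fibroblasts, had a log2 ratio of 1.72, PI16 one of 1.48 and PDGFRB one of 1.07, which no longer passed after centring. The 2 of 10 endothelial markers with a row, CDH5 (4494 and 2611) and EGFL7, summed to 4744 and 2741, and neither passed. Of 10 macrophage and leukocyte markers 3 had a row and none passed. CSF1R was at 2318 in HG against 1401 in LG, whereas SPI1 (212 and 306) and CD3E (114 and 133) had the lower count in HG. Their median log2 ratio was -0.22, and CSF1R carried their sums of 2644 and 1840. WT1 was the 1 of 12 mesothelial and epithelial markers with a row, at 49.9 and 96.1, and did not pass. Skeletal muscle markers (6 of 12 with a row), led by ACTA1 (1144 and 526), summed to 1428 and 534. Of these MYOM2 passed as higher in HG (109 and 7.24), TNNC2 was listed at 0 in both lines and MYBPC1 at 0 in LG. The paper lists TNNC2 among its genes most raised in HG, so a 0 here is not read as missing expression. The 12 hepatocyte markers were not among the symbols in the shortened list and were not analysed here, which does not mean that their counts were 0. Summed counts of the fibroblast, endothelial, macrophage and muscle lists were higher in HG, as were 8 of the 9 genes. WT1, the only mesothelial and epithelial marker with a row, was lower in HG. The adipocyte sum was lower in HG (12249, against 15200.5 in LG) through PNPLA2 alone (5366 in HG, 12187.5 in LG). PPARG and GPD1 were higher in HG, and the median log2 ratio of the adipocyte list was 0.96. The column total itself was higher in HG by 0.39 on the log2 scale. The part of these cell types in the differences of the 9 genes was not tested.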

How the data were processed

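The samples were abdominal fat of 4 HG and 4 LG birds aged 7 wk. The authors deposited 1 estimated count per locus and line with its model variance; the submitters' processing notes name TopHat 1.3.3, Bowtie 0.12.7, CASAVA and Cuffdiff 2.0.2, and the genome was Galgal4. The estimated counts deposited are not whole numbers and not divided by gene length, and their scaling between lines is not stated. Whether a count is a mean or a sum over birds is not stated, so p values rest on the model variance and not on a spread between birds examined here.

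The table had 17854 loci, 3659 of them at 0 in each line and 40 with a status other than OK. Loci with status OK, counts above 0 in both lines and at least 10 in the higher line (10484) were tested. The natural log of HG/LG was divided by its standard error (delta method), tested two-sided against the normal distribution and adjusted over all loci tested (Benjamini-Hochberg). Printed ratios and their 95% intervals have a pseudocount of 1, which the test does not; intervals cover neither the scaling nor the number of genes. The test was tried on simulated counts. Their spread came from a trend fitted to the deposited variances, and the test was given the same spread. The trial therefore cannot show if those variances are right.

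Symbols came from the first 1998 rows of the study's list, whose copy here lacks a further 414 rows, and 1511 of 1993 identifiers had a row. The members, gene lists and tests were chosen with earlier results of these data known. Named genes are the 9 members, DCN among 14 partners and paralogues listed, and listed matrix genes that passed as deposited or centred. The most counted marker of each list is named too. Other genes were added after their values were seen. These are COL22A1, COL27A1 and LAMA4, which did not pass, and TIMP4, which passed only with equal column totals. The marker genes beyond the most counted of each list were added in the same way. Apart from the gene order between COL6A1 and COL6A2, no coordinates, lengths, proteins or promoters of the 9 genes were used here. This is because the RefSeq table given is of another assembly (GRCg7b). The fit also ran with other scalings, count and fold minimums, variances and statuses. Python 3.11.15, pandas 2.3.3, numpy 2.4.6, scipy 1.17.1 and matplotlib 3.10.9 were used.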

Additional observations from a re-analysis of the deposited data

How the results depend on the processing

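No paired analysis was possible because each line has 1 pooled column with no value per bird, and for the same reason no bird could be left out. Over 10 alternative settings, SMOC1, THBS2 and LOXL2 passed in all 10, NID2 in 5, TGM2 in 2 and COL6A2, COL6A3, LAMA2 and DPT in 1, and no gene changed direction. NID2 was lost with centring, equal column totals, no count minimum (adjusted p 0.061), the Poisson variance added (adjusted p 0.072) and a fold minimum of 2. With the variance divided by the 4 birds, 9 of the 9 genes passed, 8 higher in HG and 1 in LG, as did 2841 of all loci tested, 2330 higher in HG and 511 in LG. With equal column totals, 1 of the 9 (TGM2) passed as higher in LG, and 73 loci passed as higher in HG and 163 in LG. Centred, 104 loci passed toward HG and 125 toward LG, against 217 and 90 as deposited. The variance settings cannot move the difference between COL6A2 and COL6A3 and change only its interval. At such high counts the pseudocount hardly moves the difference (-0.0785 with a pseudocount of 0, -0.0782 with 10). These settings therefore say nothing of its stability. For COL6A2 and COL6A3 the detectable fold rests on the deposited model variance, which was not checked against single birds.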
